A study of Mus musculus with 4 samples.

Results

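Ido1, Fgb, Clca1, Krt4, Pigr, Tph1, Aoc1 and Ctse are 8 genes measured in transplanted mouse mammary cells. Most are known from mucosal or glandular epithelia, while Fgb is best known from liver and Ido1 from cells exposed to interferon. They were selected because their values on control replicate 2 stood above those on the other 3 arrays, so their levels there are a description of that selection and carry no test. All 8 were found among the 17097 genes that had a probe set assigned to a single symbol, and each is represented by its brightest probe set over the 4 arrays. The values are log2 expression after RMA, the authors' background correction and normalisation, so a difference of 1 corresponds to a 2-fold difference.

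The BC alone group (n = 2 arrays) came from transplants of 10000 BC cells, which the submitters treat as multipotent. The BC and LC control group (n = 2 arrays) came from transplants of 8000 LC with 2000 BC cells, their unipotent condition. In work on the mammary gland BC and LC commonly stand for basal and luminal cells, but the labels leave both abbreviations unexplained. Every array started from the RNA of 50 cells, recovered by sorting on day 3 after transplantation, and the labels name no sorting gate, strain, genotype, age or number of animals. The arrays of a group may therefore be technical replicates.

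Mucosal epithelia meet microbes and food at body surfaces, and their cells move antibodies across the sheet, release mucus proteins and break down reactive amines. Pigr carries polymeric IgA from the tissue to the lumen, in milk as well as in the gut, and Clca1 is a protein released with mucus by goblet cells. Fgb is the beta chain of fibrinogen, the precursor of fibrin. Ido1 and Tph1 both use tryptophan: Ido1 starts its breakdown to kynurenine, and Tph1 catalyses the rate-limiting step of serotonin synthesis outside the brain, including in mammary epithelium. Aoc1 is diamine oxidase, which degrades histamine and putrescine. Ctse is an aspartic protease of the endosomal compartment, and Krt4 is a keratin of stratified linings such as the oesophagus. Ido1, Tph1 and Krt4 encode proteins that stay within the cell, so the 8 genes are not a set of secreted proteins alone.

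Control replicate 2 stood apart from the other arrays over the whole table. The SD of its values over probe sets was 1.44, against 1.90 to 1.92 on the other 3 arrays, and its correlation with them was 0.915 to 0.919 (Pearson, across probe sets, which are not independent). In the BC alone arrays the basal keratin gene Krt5 had 10.47 and 10.22, against 10.76 and 7.12 on control replicates 1 and 2. Of 14 measured basal and myoepithelial genes, 13 were at least 1 log2 below each of the other arrays on control replicate 2, against 12.1% of all genes, and the median of the list was 9.16 and 9.12 on the BC alone arrays, against 9.16 and 5.68 on control replicates 1 and 2. Between 11 and 13 of the 14 met that limit under the other scalings. Pan-luminal genes were in part lower there too, with 5 of 12 at least 1 log2 below each of the other arrays and a list median of 8.32 and 8.81 on the BC alone arrays, against 9.04 and 7.54 on control replicates 1 and 2. The share of all genes this far below moved with the scaling, to 2.81% after quantile normalisation, 16.2% after median centring and 1.29% after cyclic loess, and the pan-luminal count was 0, 5 and 0. The part of this difference in the levels of the 8 genes was not tested, and in RNA from sorted pools fewer cells of a type and less RNA per cell cannot be told apart.

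All 8 genes had their highest value on control replicate 2, at least 2 log2 above each of the other 3 arrays, which held for 0.222% of all genes. The margin, defined as the value on control replicate 2 minus the highest value among the other 3 arrays, ran from 2.73 for Ctse to 3.58 for Ido1 with a median of 2.92, which corresponds to folds of 6.63 to 12.0. Over all genes the median margin was -0.23. At a margin of at least 1 the share of all genes was 2.29%, or 391 genes. The same limit, taken for another array against its own other 3, was met by 0.883% of genes on BC alone replicate 1, 0.854% on BC alone replicate 2 and 0.719% on control replicate 1. These margins are what the genes were picked for.

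**Figure D1:**
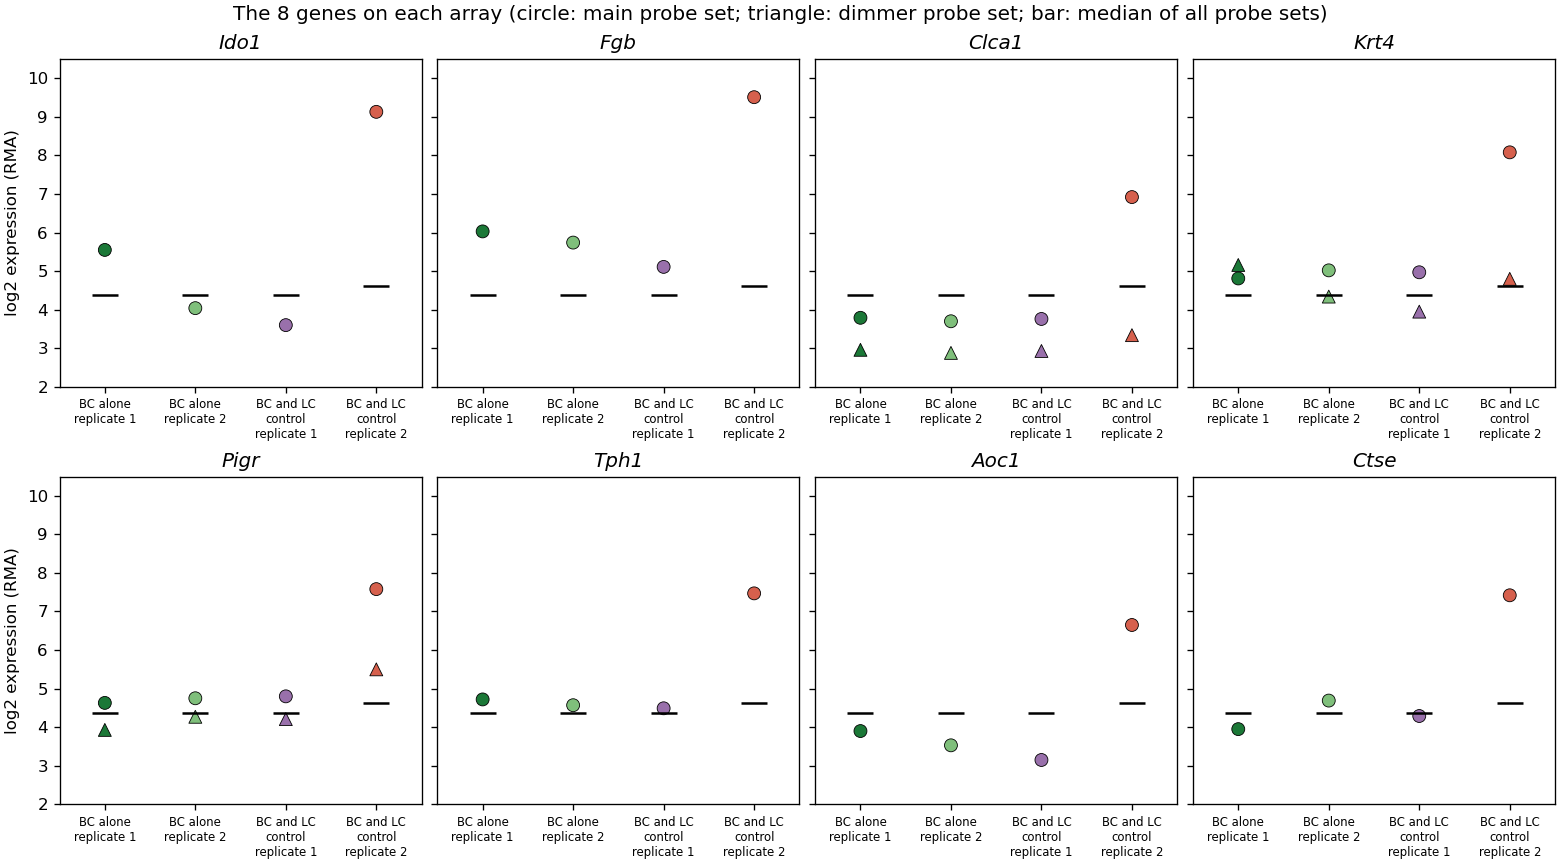
Log2 expression (RMA) of the 8 genes on the 2 BC alone arrays and the 2 BC and LC control arrays, 1 panel per gene, with circles for the main probe set, triangles for a dimmer probe set of the same gene and a bar for the median of all probe sets on that array. The circles of control replicate 2 lie between 6.65 and 9.51 while all others lie between 3.15 and 6.03, and the triangle of Krt4 is not highest on control replicate 2.

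**Figure D2:**
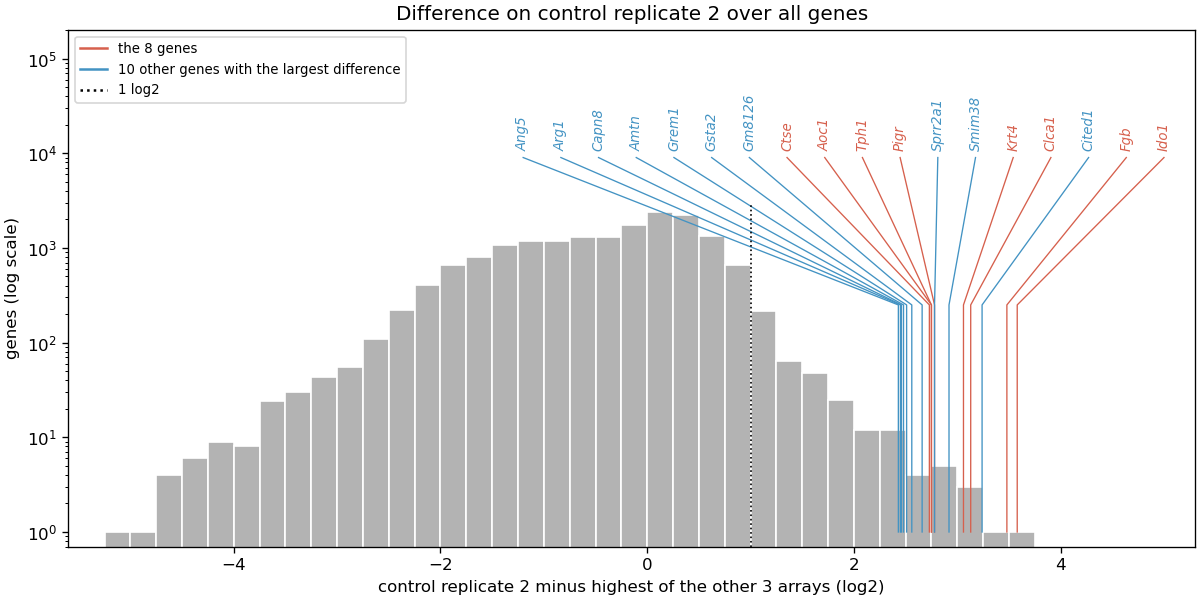
Histogram over 17097 genes of the value on control replicate 2 minus the highest of the other 3 arrays, in log2 units, with the number of genes on a log scale. Red lines mark the 8 genes, between 2.73 and 3.58, and blue lines the 10 other genes with the largest differences, between 2.43 and 3.24.

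Among the enzymes of tryptophan and amine metabolism, Ido1 differed most between arrays. Ido1 had log2 values of 5.55 and 4.04 on BC alone replicates 1 and 2, against 3.60 and 9.13 on control replicates 1 and 2. The BC alone arrays were themselves 1.51 apart, and the margin of 3.58 was set by BC alone replicate 1. Without that array it was 5.09. Tph1 had 4.72 and 4.57 in BC alone, against 4.49 and 7.47 on control replicates 1 and 2, a margin of 2.75. The 3 lower Tph1 values lay within 0.23 of each other, close to the median of all probe sets on those arrays (4.37 to 4.38). Aoc1 had 3.90 and 3.53 in BC alone, against 3.15 and 6.65 on control replicates 1 and 2, a margin of 2.75 as well. For Aoc1 the 3 lower arrays were all below their array's median, with control replicate 1 lowest at the 14.8th percentile of probe sets.

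Of the proteins that are transported or secreted, Fgb had the highest rank within the array. Fgb had 6.03 and 5.74 in BC alone, against 5.11 on control replicate 1 and 9.51 on control replicate 2, where it lay at the 99.3rd percentile of all probe sets. It was above the array median on all 4 arrays, so it was not among the dimmest probe sets anywhere. Pigr had 4.63 and 4.75 in BC alone, against 4.80 and 7.58 on control replicates 1 and 2. The 3 lower Pigr values spanned 0.17, and the margin was 2.78. Clca1 had 3.79 and 3.70 in BC alone, against 3.76 and 6.92 on control replicates 1 and 2. Its 3 lower values, between the 33.7th and 35.9th percentile, spanned 0.09, the narrowest span of the 8 genes. No detection calls were used, so whether a value below the array median reflects any transcript was not tested, and a fold over such a value may be too small.

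The keratin gene Krt4 and the protease gene Ctse were likewise highest on control replicate 2. Krt4 had 4.81 and 5.02 in BC alone, against 4.97 and 8.08 on control replicates 1 and 2, a margin of 3.06. Ctse had 3.95 and 4.69 in BC alone, against 4.29 and 7.42 on control replicates 1 and 2, a margin of 2.73. The BC alone arrays differed by 0.74 for Ctse, with control replicate 1 between them. Across the 8 genes, the 3 lower arrays spanned at most 0.25 for 4 genes (Clca1, Pigr, Krt4 and Tph1) and more than 0.5 for the other 4 (Ctse, Aoc1, Fgb and Ido1). In Ido1, Fgb, Aoc1 and Tph1 those arrays fell in the same order, with BC alone replicate 1 highest and control replicate 1 lowest. Neighbouring arrays in these orders cannot be separated beyond replicate error, since each group has 2 arrays.

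On control replicate 2 the 8 genes ranged from the 88.1st percentile (Aoc1) to the 99.3rd (Fgb) of all probe sets. On BC alone replicate 1 they ranged from the 35.9th to the 74.5th percentile, on BC alone replicate 2 from the 28.6th to the 71.1st and on control replicate 1 from the 14.8th to the 63.1st. These ranks are taken within each array and do not depend on how arrays were scaled to each other. None of the lower 3 arrays placed any of the 8 genes as high as control replicate 2 placed its lowest one.

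The contrast of BC alone with the control rested on control replicate 2 for all 8 genes. BC alone minus control was -1.61 for Krt4, -1.59 for Clca1, -1.57 for Ido1, -1.54 for Ctse, -1.50 for Pigr, -1.43 for Fgb, -1.34 for Tph1 and -1.19 for Aoc1. The SD within BC alone was 0.06 to 1.07, whereas the SD within the control was 1.97 to 3.91 (n = 2 each), larger than every one of these differences in size. That order follows largely from choosing genes that are high on 1 of the 2 control arrays. Against control replicate 1 alone, the differences ran from -0.11 to 1.19, and BC alone was the higher one for Ido1 (1.19), Fgb (0.77), Aoc1 (0.56), Tph1 (0.15) and Ctse (0.03). Pigr, Krt4 and Clca1 were at -0.11, -0.06 and -0.01. Because the genes were chosen on an array of this contrast, no p-value is given for them. Over the whole table the count of genes passing an adjusted p of 0.05 in limma was 0, or 0% of 17097, with 680 at an unadjusted p below 0.05.

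A second probe set existed for Pigr, Clca1 and Krt4, and it shared the pattern in part. The dimmer Pigr probe set had 3.93 and 4.27 in BC alone, against 4.21 and 5.50 on control replicates 1 and 2, a margin of 1.23. The dimmer Clca1 probe set had 2.96 and 2.88 in BC alone, against 2.93 and 3.34 on control replicates 1 and 2, a margin of 0.38 at the 12.8th percentile or lower on every array. For Krt4 the dimmer probe set was highest on BC alone replicate 1, with 5.16 and 4.34 in BC alone, against 3.95 and 4.80 on control replicates 1 and 2, and its margin was -0.36. Its name carries the suffix _x, which Affymetrix gives to probe sets that may bind other transcripts, while none of the 8 main probe sets carries an _x or _s suffix (7.16% of the 17097 main probe sets do). Averaging the probe sets of a gene left margins of 2.03 for Pigr, 1.76 for Clca1 and 1.46 for Krt4.

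The genes that work with the 8 did not share their margins. Fibrinogen is built from 3 chains, and Fgg, the gamma chain, had 7.98 and 9.0 in BC alone, against 6.57 and 7.30 on control replicates 1 and 2. Its margin was thus -1.70, and between -1.95 and -0.46 under the other scalings. Fga, the alpha chain, had 2.94 and 3.08 in BC alone, against 3.20 and 3.37 on control replicates 1 and 2, and its margin of 0.17 turned to between -0.10 and -0.07 under those scalings. Fgb was therefore the single fibrinogen chain at least 1 log2 above the other arrays on control replicate 2.

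Krt13, the acidic keratin that pairs with Krt4, had 3.78 and 3.75 in BC alone, against 3.66 and 4.41 on control replicates 1 and 2. Its margin was 0.63, and 0.26 to 0.39 under the other scalings, against 3.06 for Krt4. Jchain, which links the immunoglobulin polymers that Pigr binds, had 2.37 and 2.90 in BC alone, against 3.53 and 4.06 on control replicates 1 and 2. All 4 Jchain values were below the array medians. Ido2, the paralog of Ido1, had a margin of 0.64, and Tph2, the serotonin enzyme of neurons, one of 0.14, which turned negative under the 3 other scalings. Hdc, which makes histamine, and Hnmt, which methylates it, had margins of 0.08 and -0.36, and that of Hdc also turned under those scalings.

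**Figure D3:**
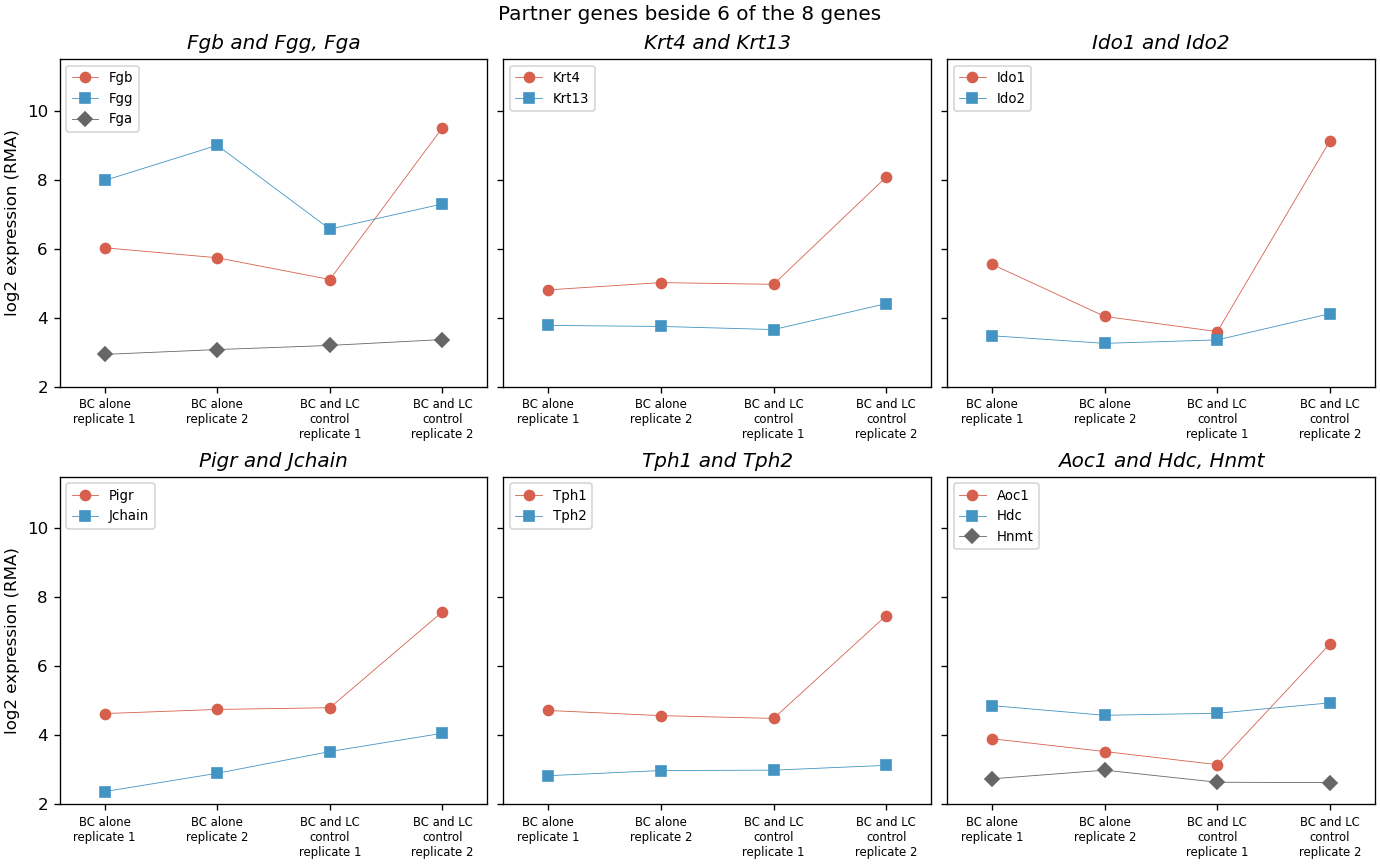
Log2 expression (RMA) of 6 of the 8 genes (red circles) beside partner or related genes (blue squares, grey diamonds) on the 2 BC alone arrays and the 2 BC and LC control arrays; lines join the points of a gene and imply no order. On control replicate 2 the red points stand 2.75 or more above the same gene on each other array, while the margins of the partner genes run from -1.70 for Fgg to 0.64 for Ido2.

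Wider lists of related genes give the same comparison over more members, counted without the 8 genes and against 2.29% of all genes with a margin of at least 1. In the kynurenine pathway 0 of 7 measured genes reached that margin and the list's median margin was 0.08. Among genes of serotonin handling it was 0 of 10 with a median of 0.15, and for histamine and polyamine metabolism 0 of 8 with a median of -1.95. Under the other scalings the medians of the kynurenine and serotonin lists were negative, and 1 histamine and polyamine gene reached the margin after quantile normalisation. Other cathepsins and aspartic proteases gave 0 of 18 with a median of -0.82, and acute-phase and fibrinogen genes 0 of 16 with a median of -1.12. Each of these 2 lists had 1 gene past the margin after quantile normalisation and after cyclic loess. Their medians moved with the scaling, to -0.19 and -0.29 after quantile normalisation, -1.06 and -1.37 after median centring and -0.24 and -0.44 after cyclic loess. The histamine and polyamine median was -0.89, -2.2 and -0.73 in that order. Over all genes the median margin was -0.16, -0.47 and -0.18.

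Interferon-gamma is a known inducer of Ido1. Of 20 other interferon-gamma-induced genes measured, 0 reached a margin of 1 and 8 were at least 1 log2 below each other array on control replicate 2, against 12.1% of all genes. Quantile normalisation gave 2 and 6 of the 20 (2.81% of all genes that far below), cyclic loess 2 and 5 (1.29%), and median centring 0 and 10 (16.2%). The median of the list was 6.16 and 6.82 on the BC alone arrays, against 6.76 and 5.17 on control replicates 1 and 2. Ido1 had its highest value on the array on which the list's median, as deposited, was lowest. On that array 3 of the 20 genes also had their highest value, against 6904 of the 17097 genes. This count moved with the scaling, to 7 after quantile normalisation, 3 after median centring and 6 after cyclic loess. The part of interferon in the level of Ido1 was not tested.

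Goblet cell and mucosal defence genes held a few members with a margin of at least 1 and some that went the other way. Of 22 other CLCA and goblet cell genes 16 were highest on control replicate 2, against 6904 of all 17097 genes. For the 20 secreted antimicrobial and airway-type genes it was 12. After quantile normalisation, median centring and cyclic loess the counts were 14, 13 and 13 for the former list. For the latter they were 9, 7 and 9. The median margins were 0.40 for the CLCA and goblet cell list and 0.08 for the secreted antimicrobial and airway-type list. Under the other scalings the former was 0.16 to 0.43 and the latter -0.16 to -0.08. Of 22 other CLCA family and goblet cell genes, 3 had a margin of at least 1, and 2 to 5 did under the other scalings. They were Fcgbp, a mucus protein that binds IgG, with a margin of 1.66, and the membrane mucins Muc16 and Muc4 with 1.49 and 1.16. After median centring and after cyclic loess Muc4 was below 1, at 0.92 and 0.80. In the same list 1 gene, Clca3a2, was at least 1 log2 below each other array there, against 12.1% of all genes. Clca3a2 had 7.24 and 7.59 in BC alone, against 7.18 and 4.25 on control replicates 1 and 2. Of 20 secreted antimicrobial and airway-type genes, 4 had a margin of at least 1. Cxcl17, a mucosal chemokine, had 2.41, Pglyrp1, a peptidoglycan-binding protein, 2.08, Ltf, lactoferrin, 1.70, and Dmbt1, a mucosal scavenger protein, 1.58. These 4 kept margins of 1.33 or more under the other scalings. In that list 2 genes, Slpi and Chil1, were at least 1 log2 below each other array, at -1.38 and -2.2 from the lowest. After quantile normalisation and after cyclic loess 0 genes of that list were that far below. Cxcl17 had 4.88 and 4.16 in BC alone, against 4.63 and 7.29 on control replicates 1 and 2.

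Other mucosal and stress keratins gave 1 of 10 at that margin, Krt78 with 1.20, or 0.96 after median centring. For immunoglobulin transport and mucosal homing it was 2 of 9, the gut homing receptor gene Ccr9 with 1.19 and the IgM heavy chain gene Ighm with 1.08. Both fell below 1 after median centring and cyclic loess. The median margin of that list was 0.24. Igha, the IgA heavy chain gene, was lowest on control replicate 2, with 6.18 and 6.55 in BC alone, against 6.39 and 5.33 on control replicates 1 and 2.

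Lists of intestinal, hepatocyte, mast cell and enteroendocrine markers all had a median on control replicate 2 below the 4.62 that was the median of all probe sets on that array. Of 9 intestinal epithelium markers 0 had a margin of at least 1, and the median of the list was 4.01 and 3.47 on the BC alone arrays, against 3.54 and 4.41 on control replicates 1 and 2. Of 9 hepatocyte markers it was 1, Ttr (margin 1.06, 0.81 and 0.93 after median centring and cyclic loess, and -0.22 when its probe sets were averaged), and Alb, albumin, had 4.16 and 3.91 in BC alone, against 4.25 and 4.46 on control replicates 1 and 2. Mast cell and basophil markers gave 0 of 9 with a median of 4.32 on control replicate 2, and enteroendocrine and neuroendocrine markers gave 1 of 8, Syp, at 1.0, which was below 1 under the other scalings. After quantile normalisation 1 mast cell and basophil marker and 2 hepatocyte markers reached the margin. Highest on control replicate 2 were 8 of 9 hepatocyte, 7 of 9 intestinal, 7 of 9 mast cell and 7 of 8 enteroendocrine markers. Over all genes it was 6904 of 17097. Under the other scalings these 4 counts were 3 to 4, 3, 4 and 5 to 6. T and NK cell, B and plasma cell, neutrophil, and macrophage and dendritic cell markers gave 0 of 9, 0 of 5, 0 of 6 and 0 of 10. The share of all genes was 2.29%, and in lists this short a count of 0 cannot be told apart from it. In these 4 lists 7, 3, 3 and 5 genes were highest on control replicate 2, and 3 to 5, 2, 1 and 2 to 5 under the other scalings. For macrophage and dendritic cell markers 2 of 10 reached the margin after quantile normalisation or cyclic loess. The part of any of these cells in the levels of the 8 genes was not tested.

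**Figure D4:**
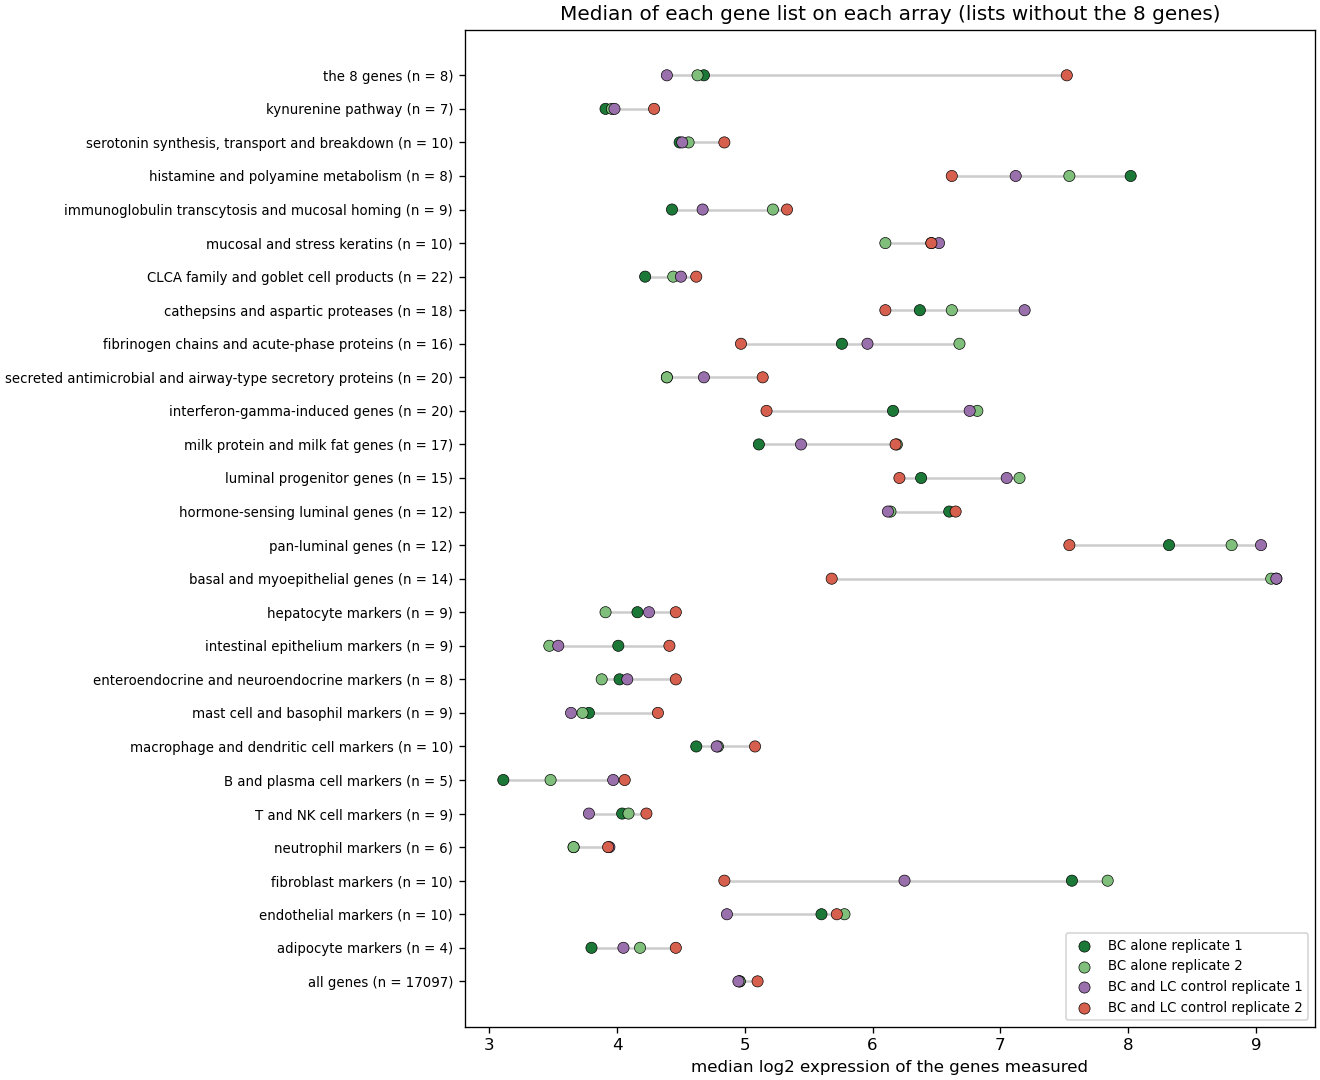
Median log2 expression of each gene list on each array, with green points for the BC alone arrays, purple for BC and LC control replicate 1 and red for BC and LC control replicate 2; n is the number of genes measured, leaving the 8 genes out of the other lists. The 8 genes have medians of 4.68 and 4.63 on the BC alone arrays, against 4.39 and 7.52 on control replicates 1 and 2, and the basal list lies lowest on control replicate 2 at 5.68.

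The 10 other genes whose pattern over the 4 arrays was most like that of the 8, ranked by the same margin, were Cited1, Smim38, Sprr2a1, Gm8126, Gsta2, Grem1, Amtn, Capn8, Arg1 and Ang5. Cited1, a transcriptional co-regulator of hormone-responsive mammary cells, had 5.97 and 6.04 in BC alone, against 5.34 and 9.28 on control replicates 1 and 2, and its margin of 3.24 lay between those of Fgb and Clca1. Sprr2a1, a precursor protein of the cornified envelope, had 5.85 and 5.89 in BC alone, against 6.07 and 8.85 on control replicates 1 and 2. Grem1 is an antagonist of bone morphogenetic proteins, Arg1 an arginase and Gsta2 a glutathione transferase. Together with the 8 genes, Cited1, Smim38 and Sprr2a1 made up the 11 largest margins in the values as deposited. The lowest place of the 8 genes was 14 after quantile normalisation, 22 after cyclic loess and 96 with averaged probe sets. The margin of Gsta2 was 2.56, and 1.46 with averaged probe sets. The main probe sets of Smim38, Gm8126 and Gsta2 carry an _x or _s suffix, and that of Gm8126 had values of 2.70 and 2.66 in BC alone, against 2.66 and 5.36 on control replicates 1 and 2.

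Pigr and Ctse lie on chromosome 1 with 13 protein-coding genes between them in the RefSeq table of GRCm38.p6. Of the 11 that were measured, 0 had a margin of at least 1, against 2.29% of all genes. The highest was 0.59 for Il20, and their median was -0.59. With 11 genes a count of 0 cannot be told apart from that share. Clca1 and Fgb share chromosome 3 with 627 protein-coding genes between them. Of the 498 measured there, 13 had a margin of at least 1, the highest being 2.78 for Sprr2a1, and their median was -0.46.

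Promoter sequences, from RefSeq on GRCm38.p6, were held for 4 of the 8 genes, with 6 entries. None was held for Ido1, Krt4, Ctse or Clca1. They are shown because genes picked for 1 common pattern may be compared in the sequence before their start. Fgb carries the most kinds of match, Aoc1 only 1 kind, and Pigr none. Each run is the 250 bases before the start, 5′ to 3′ on the strand of the gene, and capitals mark letters within a match to any of the 5 motifs searched on both strands.
Fgb (chr3:83049864-83050113, minus strand): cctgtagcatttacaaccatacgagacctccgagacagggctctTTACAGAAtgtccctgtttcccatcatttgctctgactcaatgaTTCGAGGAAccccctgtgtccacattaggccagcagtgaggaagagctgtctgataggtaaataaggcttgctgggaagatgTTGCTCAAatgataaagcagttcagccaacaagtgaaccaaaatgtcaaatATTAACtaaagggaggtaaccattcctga
Aoc1 (chr6:48904736-48904985, plus strand): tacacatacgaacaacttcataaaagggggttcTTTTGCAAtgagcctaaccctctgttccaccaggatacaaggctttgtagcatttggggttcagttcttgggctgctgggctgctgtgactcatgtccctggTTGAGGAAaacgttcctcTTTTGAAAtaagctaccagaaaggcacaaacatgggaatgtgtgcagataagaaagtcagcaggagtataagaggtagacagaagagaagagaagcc
Pigr (chr1:130826434-130826683, plus strand): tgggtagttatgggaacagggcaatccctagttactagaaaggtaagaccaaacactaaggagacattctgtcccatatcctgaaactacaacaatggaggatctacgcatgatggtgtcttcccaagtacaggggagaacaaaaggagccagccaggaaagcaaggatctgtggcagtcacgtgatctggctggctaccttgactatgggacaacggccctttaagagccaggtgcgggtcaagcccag

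The motifs were GAAANNGAA (an interferon-response type), TTCNNNGAA (a STAT type), GTTAAT (an HNF1 half-site), TTNNGNAA (a C/EBP type) and the TATA-box letters, TATAAA. The Fgb run holds 1 STAT-type match 162 to 154 bases before the start, 1 HNF1 half-site 29 to 24 bases before it on the opposite strand, and 2 C/EBP-type matches. Over all 32851 promoters of the table these motifs were found in 7.02%, 6.43% and 36.8%. The printed Aoc1 run holds 3 C/EBP-type matches, and the other Aoc1 entry holds 2 that overlap completely on opposite strands. Of the 2 Tph1 entries, 1 holds an HNF1 half-site and the other no match. The interferon-response type, present in 7.13% of all promoters, and the TATA box, present in 12.4%, were found in 0 of the 6 entries. The promoter of Ido1 was not among these and was not searched. No motif was common to all 4 genes that had an entry. These matches describe letters and not occupied sites.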

How the data were processed

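The authors deposited log2 values, 1 for every probe set and array. RMA and affy are the tools that the submitters' processing notes name, without versions. The column distributions differed, and whether the 4 arrays were normalised jointly is not given in the sources used here, nor is a genome build. The platform annotation gave 28898 of 45141 probe sets 1 symbol, 551 several and 15692 none. Entrez identifiers of 28689 matched the RefSeq table. The brightest probe set by mean stood for a gene, which left 17097 genes, with no filter. No detection calls were used, and the number of arrays limits the precision.

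Margins, ranks and list counts were computed with pandas 2.3.3 in Python 3.11.15. BC alone was compared with the control over all genes in limma 3.58.1 (R 4.3.3; lmFit, eBayes, two-sided, Benjamini-Hochberg, no block). The limma code was also run on simulated data in which no array stood apart, so that run does not bear on the limma count found here. The margin code was run on made-up values in which a single array was raised for some genes. The 8 genes, the 26 other lists and the rule for named genes were chosen with earlier results of these data known. That rule took the 8 genes, up to 4 genes a list with a margin of at least 1, 8 partner genes, the 10 largest other margins and the 5 genes furthest below the other arrays on control replicate 2. Krt5, Il20, Alb, Esr1, Btn1a1, Clca3a2, Slpi, Chil1 and Igha lie outside it and were picked with their values known. A planned look at protein N-termini was not made. Alternatives were another quantile normalisation, median centring, cyclic loess, averaged probe sets, leaving out arrays, a filter on dim genes and other variance models.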

Additional observations from a re-analysis of the deposited data

How the results depend on the processing

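The margins of the 8 genes stayed at 1 or more under every setting tried. Their median of 2.92 became 3.78 after quantile normalisation and 2.68 after median centring, which lowered the median of all genes on control replicate 2 relative to the other arrays from 0.05 to -0.20. It moved by less than 0.24, the median over the 8 genes of the SD of the other 3 arrays, after cyclic loess and with averaged probe sets. Leaving out 1 of the other arrays can only keep or raise a margin, so those settings do not test it. They gave medians of 3.09 and 3.12 without BC alone replicates 1 and 2, and 2.94 without control replicate 1. The 391 genes with a margin of at least 1 became 810 after quantile normalisation, 179 after median centring, 221 among the 10454 genes brighter than the median probe set and 38 at a margin of 2. The 2071 genes at least 1 log2 below each other array there became 480, 2770 and 221 after quantile normalisation, median centring and cyclic loess. The limma count of 0 became 97 with an intensity trend (56 higher and 41 lower in BC alone) and 108 with the replicate block (94 higher, 14 lower), and was 0 under the other settings, including each left-out array and a robust variance model, with 349 to 5924 genes at an unadjusted p below 0.05 among the left-out arrays. Deviations of same-numbered arrays correlated at -0.02, so the numbers are not taken as pairs, and the cause of the block's effect was not tested.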

Other observations

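A few hormone-sensing and milk genes had a margin of at least 1 on control replicate 2, while the list medians were -0.31 and -0.70. The hormone-sensing median changed sign with the scaling, at 0.34 after quantile normalisation, -0.55 after median centring and 0.20 after cyclic loess, and the milk median was -0.38, -0.94 and -0.51. Of 12 hormone-sensing luminal genes, 3 reached that margin, against 2.29% of all genes. The count was 4 after quantile normalisation, 2 after median centring and 4 after cyclic loess, against 4.74%, 1.05% and 2.68% of all genes. The 3 were Cited1 with 3.24, Foxa1, a luminal transcription factor, with 1.94 and Stc2 with 1.0, or 0.76 after median centring. The lowest margin of the list was -2.47, for the estrogen receptor gene Esr1. Foxa1 had 5.42 and 4.21 in BC alone, against 4.79 and 7.36 on control replicates 1 and 2. Of 17 milk protein and milk fat genes 3 reached the margin, or 3, 2 and 2 under those scalings. They were the mucin-like Glycam1 with 2.33, the whey protein gene Wap with 1.59 and the casein gene Csn1s2b with 1.07, which was below 1 under the 3 other scalings. The lowest margin there was -3.62, for the butyrophilin gene Btn1a1. Glycam1 had 3.21 on both BC alone arrays, against 4.31 and 6.64 on control replicates 1 and 2. Of 15 luminal progenitor genes 0 reached the margin, and 6 were at least 1 log2 below each other array there, against 12.1% of all genes. The count was 3 after quantile normalisation, 6 after median centring and 2 after cyclic loess, against 2.81%, 16.2% and 1.29%. Of 10 endothelial markers 1 reached the margin, Vwf with 1.63, against 2.29% of all genes. The median margin of that list was -0.86, and -0.45, -1.1 and -0.51 under those scalings. As deposited, 1 of the 10 was at least 1 log2 below each other array there, against 12.1% of all genes.

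The 5 genes furthest below the other arrays on control replicate 2 were Ecrg4, Myl9, Lama3, Col17a1 and Myh11, at -4.32 to -4.11 from the lowest of those arrays. After cyclic loess they were at -3.18 to -2.68, and with averaged probe sets Lama3 was at -1.90 and Myh11 at -1.98. Myh11, a smooth muscle myosin, had 10.29 and 9.86 in BC alone, against 9.79 and 5.68 on control replicates 1 and 2. Col17a1, a hemidesmosomal collagen, had 9.57 and 9.11 in BC alone, against 9.58 and 4.92 on control replicates 1 and 2. Of 10 fibroblast markers 6 were at least 1 log2 below each other array there, against 12.1% of all genes, with 3 after quantile normalisation (2.81%), 6 after median centring (16.2%) and 3 after cyclic loess (1.29%). Of 4 adipocyte markers 0 were.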
